A study of Mus musculus with 16 samples.

Results

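The regions described here are the ATAC-seq peaks of the Myb locus in mouse hematopoietic stem and progenitor cells (HSPCs), from 10 kb downstream of Myb to the far end of the neighboring gene Hbs1l. They were selected on measured values: peaks from the 16 lists, 1 per library, were joined on any overlap of 1 bp or more, and every merged region in this window of chromosome 10 (mm10, chr10:21114935-21368898, 254.0 kb) was kept, which gave 81 of 296215 regions genome-wide. The study examined loss of the acetyltransferase p300 in HSPCs with and without Tet2, in 16 libraries of 4 genotypes, 4 libraries each. Per the study's methods, mice were C57BL/6 of both sexes, and every group carried floxed Ep300 alleles and was given 3 doses of poly(I:C) at 6 to 8 weeks of age. WT mice were Ep300 fl/fl without Cre, P300KO mice were Mx1-Cre Ep300 fl/fl, TET2KO mice were Ep300 fl/fl Tet2-/-, and P300KO_TET2KO mice were Mx1-Cre Ep300 fl/fl Tet2-/-. Mx1-Cre is switched on by interferon and so acts in many interferon-responsive cells beyond the blood lineage. Each library came from sorted cells pooled from 2 age-matched mice of the same genotype. The methods place experiments 2 weeks after poly(I:C) unless another time is given, and name no other time for this assay.

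Myb encodes c-Myb, a DNA-binding transcription factor that keeps progenitors immature and dividing, and that falls as blood cells mature. In red cell precursors Myb is known to be driven by distal enhancers in the interval between Myb and Hbs1l, which carry sites for Gata, Tal1, Ldb1 and Klf1 proteins and contact the Myb promoter through loops. The c-Myb protein itself binds p300 through its transactivation domain. Hbs1l, which encodes a ribosome rescue factor, is read in the opposite direction, away from Myb. ATAC-seq inserts sequencing adapters into accessible chromatin, and a peak marks a stretch where insertions pile up above the local background of the same library.

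The lists of replicates 1 and 2 held between 86039 and 110055 peaks and those of replicates 3 and 4 between 130610 and 137335, in every genotype. Nothing in the sources states what differed between these pairs of replicates, so the reported fits and permutation tests take the pair into account. Means and ranges over a genotype or over all lists pool both pairs. No read counts were used, and the depth reached by each library is unknown. Promoters of 9 of 10 HSPC markers, Kit, Flt3, Cd34 and Meis1 among them, held a peak in all 16 lists, and Ly6a did in 15. Of markers of other marrow cells, the B cell gene Ms4a1, the neutrophil gene Ly6g and the erythroid gene Slc4a1 had no promoter peak in any list, whereas Adgre1 of macrophages and Hbb-bt of the erythroid lineage had one in all 16. The Ep300 promoter, which the deletion leaves in place, had a peak in all 16 lists with a mean percentile of 94.1, so the lists do not check the deletion.

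Positions are given relative to the Myb start, with negative values upstream toward Hbs1l and positive values inside and beyond Myb. Myb (ENSMUSG00000019982.15) lies on the minus strand at chr10:21124935-21160984, and Hbs1l (ENSMUSG00000019977.16) on the plus strand at chr10:21295979-21368898, with 135.0 kb between their starts. The sequences below carry the results on the Myb promoter and on the upstream regions. The first gives the 250 bases before the Myb start on the minus strand (RefSeq, GRCm38.p6, chr10:21160985-21161234). The other sequences give 100 bases either side of the summit on the plus strand of mm10, at chr10:21196726-21196926, chr10:21228573-21228773 and chr10:21252217-21252417. Capitals mark short strings searched on both strands: AGATAA or TGATAA for Gata factors, GGAAGT for Ets factors, TGTGGT for Runx, CAGATG for Tal1, CAACGG, also CAACTG, also TAACGG and also TAACTG for Myb itself, TTGCNNAA for Cebp, and TGACTCA or TGAGTCA for Ap1.
Myb promoter: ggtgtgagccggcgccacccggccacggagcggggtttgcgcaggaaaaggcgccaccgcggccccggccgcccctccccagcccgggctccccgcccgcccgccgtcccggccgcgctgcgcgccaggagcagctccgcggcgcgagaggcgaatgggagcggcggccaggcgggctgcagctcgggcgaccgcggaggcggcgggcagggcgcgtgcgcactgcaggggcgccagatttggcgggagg
-35.8 kb: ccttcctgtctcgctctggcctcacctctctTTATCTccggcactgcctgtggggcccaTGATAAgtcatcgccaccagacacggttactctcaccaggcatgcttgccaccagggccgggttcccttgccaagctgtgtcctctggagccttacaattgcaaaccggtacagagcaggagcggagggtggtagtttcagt
-67.7 kb: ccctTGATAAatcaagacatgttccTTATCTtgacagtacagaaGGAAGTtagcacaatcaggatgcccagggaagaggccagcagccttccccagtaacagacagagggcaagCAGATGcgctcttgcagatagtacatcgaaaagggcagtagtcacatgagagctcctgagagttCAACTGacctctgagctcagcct
-91.3 kb: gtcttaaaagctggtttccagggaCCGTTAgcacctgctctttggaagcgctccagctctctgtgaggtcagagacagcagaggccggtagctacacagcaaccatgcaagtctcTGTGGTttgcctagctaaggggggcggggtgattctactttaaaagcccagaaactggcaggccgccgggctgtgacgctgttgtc

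The Myb promoter held none of these strings in the 250 bases before the start, of which 81.2% were G or C. The region at -67.7 kb held the widest set, with a pair of Gata strings, an Ets, a Tal1 and a Myb string, and the Tal1 string was centered 16.5 bp from the summit. The region at -35.8 kb held a pair of Gata strings, TGATAA and the reverse complement of AGATAA, centered 38.5 and 66.5 bp from the summit. The region at -91.3 kb held a Runx string 17.5 bp and a Myb string 73.5 bp from the summit. No matches printed here overlap one another. Over the 6 strongest non-promoter regions on all 16 lists (+29.7, +7.2, -25.9, -35.8, -67.7 and -91.3 kb), a Gata string was found in 3 of 6, a Myb string in 3, an Ets string in 2, and a Runx, a Tal1 and a Cebp string in 1 each. No Ap1 string and no Ctcf consensus were found in these windows, and the +7.2 kb region, in the first part of Myb, held no string at all. For comparison, a Gata string was found in 16.1% of the 22247 non-promoter regions on all 16 lists, an Ets string in 34.2%, a Runx string in 29.5%, a Myb string in 22.8%, a Tal1 string in 18.4%, a Cebp string in 9.88%, an Ap1 string in 7.52% and the Ctcf consensus in 9.75%. Among the 32851 RefSeq promoters searched, the shares were 16.6% for Gata, 19.7% for Ets, 23.7% for Myb, 14.4% for Tal1, 9.56% for Cebp and 4.46% for Ap1. These matches describe letters in the reference genome and do not show binding.

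Accessible regions were dense across the locus. The window held 31.9 merged regions per 100 kb against 10.9 genome-wide, and 3.94 regions on all 16 lists per 100 kb against 1.44 genome-wide. Of the 81 regions, 10 were on all 16 lists, 45 on between 2 and 15, and 26 on a single list. By class, 4 lay downstream of Myb, 20 in the Myb gene body, 2 within 1 kb of the Myb start, 36 between the genes, 1 at the Hbs1l start and 18 in the Hbs1l gene body. The regions on all 16 lists were 4 in the Myb gene body, 4 between the genes and the 2 promoters, and none lay within the Hbs1l gene body or downstream of Myb. A total of 22 regions were seen only in replicates 3 or 4 and 17 only in replicates 1 or 2. Of the 7 regions on 15 lists, 5 were absent only from WT replicate 1, 1 only from WT replicate 2 and 1 only from TET2KO replicate 2.

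**Figure D1:**
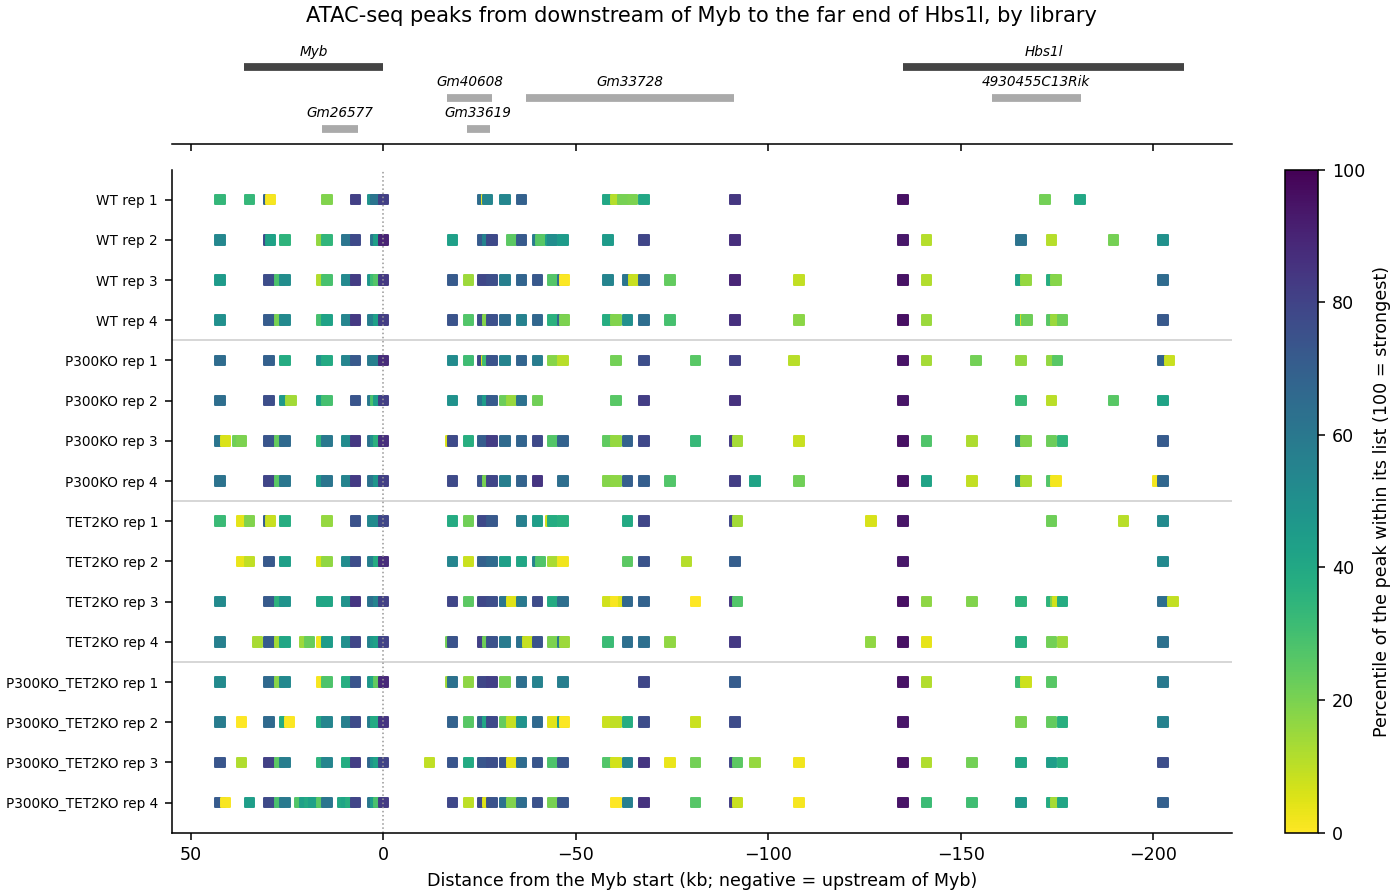
Peaks of the window in each of the 16 libraries (rows), placed by distance from the Myb start in kb, with genes above and color giving the percentile of the peak within its list. Dark columns at the Myb promoter, at -91.3 kb and at the Hbs1l promoter run through all 16 rows, and no peak lies between -107.9 and -126.5 kb in any row.

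Peaks are compared by their percentile within the list of their own library, ranked by -log10 p, where 100 is the strongest peak of that list. A percentile carries no unit of signal, and it cannot tell a change in how open a site is from a change in the share of cells in which it is open. The Hbs1l promoter region (chr10:21295517-21296662, 1146 bp) was the strongest of the locus, with a mean percentile of 94.9 and a range of 93.4 to 96.0 over all 16 libraries. WT libraries averaged 95.0 ± 0.90 and P300KO libraries 95.1 ± 0.82 (SD, n = 4 each). TET2KO libraries averaged 94.7 ± 1.15 and P300KO_TET2KO libraries 94.8 ± 0.27 (SD, n = 4 each). The 4 groups overlapped throughout.

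The Myb promoter region (chr10:21160473-21161801, 1329 bp) spanned the first exon and the sequence before it, and its summit moved by no more than 80 bp over the libraries. In replicates 1 to 4 its percentile was 81.3, 90.3, 83.6 and 82.4 in WT. It was 87.5, 81.3, 86.5 and 81.4 in P300KO, and 79.0, 87.4, 81.2 and 80.2 in TET2KO. In P300KO_TET2KO it was 88.6, 84.6, 79.7 and 82.8. The ranges of the 4 genotypes overlapped, and the fitted effect of p300 loss on its rank score was 0.07 ± 0.10 (SE; limma adjusted p = 0.775). A second region that reached within 1 kb of the start, at +1.2 kb in an intron, was weaker, with a mean percentile of 39.3 on the 13 lists that held it.

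The other regions on all 16 lists fell in 2 groups of 4. Between the genes, the region at -91.3 kb (chr10:21251711-21252756) had the highest mean percentile, 81.6, with a median fold enrichment over local background of 15.1 (range 4.79 to 23.8). Its summit is intergenic, and the region overlaps the start of the noncoding gene Gm33728. The regions at -25.9 kb (chr10:21186658-21187297) and -67.7 kb (chr10:21228373-21229012) lie in introns of noncoding genes, Gm40608 and Gm33619 for the first and Gm33728 for the second, and had mean percentiles of 73.9 and 73.1. The region at -35.8 kb (chr10:21196533-21197149) is intergenic and had a mean percentile of 62.2. A further strong region, at -28.2 kb, was on 15 lists with a mean percentile of 75.8, and was absent only from WT replicate 1.

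Inside Myb, the region at +7.2 kb (chr10:21153500-21154151) had a mean percentile of 79.0, and the region at +29.7 kb (chr10:21130971-21131470) one of 73.2. Both lie in introns of Myb, the first also over an exon of the antisense gene Gm26577. The intronic region at +1.9 kb (chr10:21158691-21159426) and the region at +14.6 kb (chr10:21146156-21147204), which overlaps exon 9 of Myb, were weaker, with mean percentiles of 49.6 and 39.5. The median over the 10 regions was 73.5, against 80.8 over all 39310 regions on all 16 lists.

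**Figure D2:**
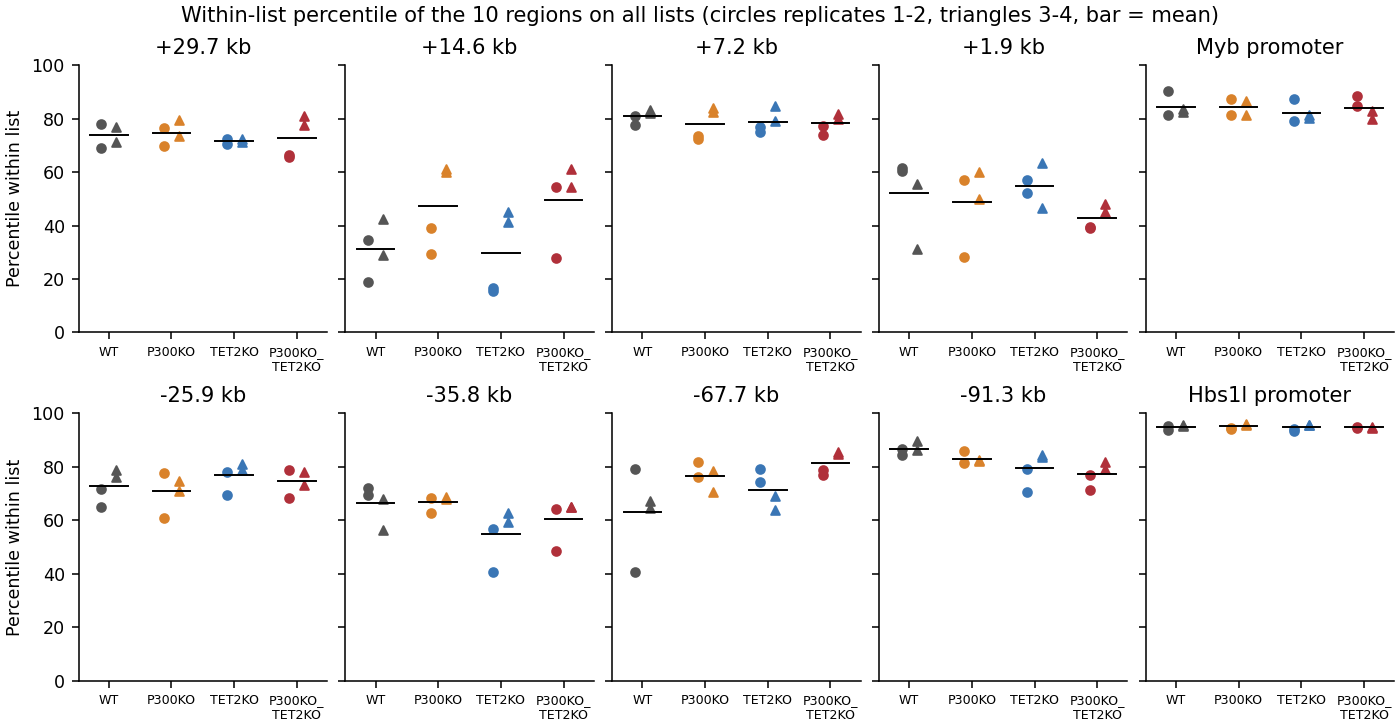
Within-list percentile (100 = strongest) of the 10 regions on all 16 lists, for each library by genotype, with circles for replicates 1 and 2, triangles for replicates 3 and 4 and a bar at the mean of 4. Both promoters sit at similar levels in every genotype, while the +14.6 and -67.7 kb regions spread widely and have higher means in the genotypes without p300.

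Whether p300 loss moved these regions was tested with limma on rank scores, the rank of a region among the 39310 shared regions of its library turned into a normal score, with genotype and replicate pair as terms and p-values adjusted over all 39310. Of the 10 regions, 1 was called for loss of p300 over both Tet2 backgrounds, while 1015 regions, 2.58%, were called genome-wide. The called region was +14.6 kb, whose score was higher without p300 by 0.70 ± 0.16 (SE, n = 8 libraries against 8, limma adjusted p = 0.0312). This merged region is 1049 bp long, and its summit ranged over 537 bp across libraries. Peaks covered at least 50% of it in 7 of 16 libraries: 1 WT, 3 P300KO, 0 TET2KO and 3 P300KO_TET2KO. Each library was scored by its strongest peak in the region, and whether these peaks mark the same site was not tested. Its percentile in replicates 1 to 4 was 18.9, 34.5, 29.1 and 42.5 in WT and 39.1, 29.4, 60.1 and 61.2 in P300KO. In TET2KO it was 15.6, 16.7, 41.4 and 45.1, and in P300KO_TET2KO 27.8, 54.4, 54.5 and 61.3. In replicates 3 and 4 every library without p300 stood above every library with it, from 54.5 to 61.3 against 29.1 to 45.1, whereas in replicates 1 and 2 the groups overlapped. How many regions genome-wide separate in this way was not counted. In replicates 3 and 4 alone, limma passed 7961 of 39310 regions for p300 loss at an unadjusted threshold of 0.05. The effect at +14.6 kb was 0.49 in replicates 1 and 2 alone (adjusted p = 0.587) and 0.91 in replicates 3 and 4 alone (adjusted p = 0.0153, limma). The call was lost, with adjusted p between 0.0535 and 0.0729, on leaving out any of 10 libraries: WT replicates 3 and 4, P300KO replicates 3 and 4, TET2KO replicates 1, 2 and 3, and P300KO_TET2KO replicates 2, 3 and 4. It was kept on leaving out any of the other 6, and the difference stayed between 0.60 and 0.80.

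The region at -67.7 kb, with its Gata, Tal1 and Ets strings, had a difference of similar size that did not pass the threshold: 0.61 ± 0.18 (SE; limma adjusted p = 0.0967). Its percentile was 40.5, 79.3, 67.2 and 64.6 in WT and 76.2, 81.8, 78.2 and 70.5 in P300KO. It was 79.0, 74.3, 68.9 and 63.8 in TET2KO and 78.8, 76.8, 84.6 and 85.4 in P300KO_TET2KO. In replicates 3 and 4 all libraries without p300 (70.5 to 85.4) stood above those with it (63.8 to 68.9), and in replicates 1 and 2 the groups overlapped. Here too, the genome-wide share of such separation was not counted. The difference was 0.37 in replicates 1 and 2 alone (limma adjusted p = 0.742) and 0.85 in replicates 3 and 4 alone (limma adjusted p = 0.0122). Without WT replicate 2 the limma adjusted p was 0.0450, and without any of the other 15 libraries it lay between 0.0729 and 0.186.

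For the single contrasts, none of the 10 regions was called for P300KO_TET2KO against TET2KO, for which limma called 52 regions, 0.132%, genome-wide. At an unadjusted threshold of 0.05, limma passed 2 of the 10 and 8.45% of all regions. None was called for P300KO against WT either, with 199 regions, 0.506%, called genome-wide and 2 of the 10 at the unadjusted threshold, against 15.1% of all regions. The +14.6 kb region differed by 0.78 in the first contrast and 0.61 in the second, and the -67.7 kb region by 0.60 and 0.62. Both contrasts enter the p300 effect above and are not separate evidence. The interaction of p300 and Tet2 gave no call among the 10 regions and 0% genome-wide; at the unadjusted threshold limma passed 0 of the 10 and 2047 of 39310. Over the 10 regions the median p300 effect was 0.04 and 6 of 10 were above 0, against a median of 0.01 over all regions. With log2 fold enrichment in place of ranks the median was -0.09 and 3 of 10 were above 0, against -0.01 over all regions. A fit of regions on at least 8 lists took in 32 of the window, with a missing peak set to the lowest score. Its median p300 effect in the window was 0.46 and 25 of 32 were above 0, against a median of 0.07 over all 100435 regions. Of the 32 regions, 0 were called there. The +1.9 kb region had the lowest p300 effect of the 10, -0.29 ± 0.18 (SE; limma adjusted p = 0.465).

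Loss of Tet2 over both p300 backgrounds called none of the 10 regions, against 308 regions, 0.784%, genome-wide, and 2 of the 10 passed unadjusted, near the 13.6% of all regions that did. Both lay upstream, and their values are given as a description. The region at -91.3 kb had a difference of -0.38 ± 0.10 (SE, limma adjusted p = 0.111). The region differed by -0.53 in replicates 1 and 2 alone (limma adjusted p = 0.306). In replicates 3 and 4 alone the region differed by -0.22 (limma adjusted p = 0.396). Its percentile in replicates 1 to 4 was 84.3, 86.6, 89.6 and 86.2 in WT and 81.3, 85.7, 82.7 and 82.0 in P300KO. In TET2KO it was 79.1, 70.6, 84.3 and 83.5, and in P300KO_TET2KO 71.4, 77.0, 79.1 and 81.8, so WT and P300KO_TET2KO did not overlap. The region at -35.8 kb had a difference of -0.41 ± 0.15 (SE; limma adjusted p = 0.232). Its mean percentile was 66.5 ± 6.84 in WT and 66.9 ± 2.91 in P300KO, against 54.8 ± 9.74 in TET2KO and 60.6 ± 8.01 in P300KO_TET2KO (SD, n = 4). The range in P300KO, 62.6 to 68.7, lay just above that in TET2KO, 40.7 to 62.6, and the other pairs of genotypes overlapped. For both upstream regions, the genome-wide share of such separation between genotypes was not counted. At the Myb promoter the effect of Tet2 loss was -0.09 ± 0.10 (SE; limma adjusted p = 0.735).

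**Figure D3:**
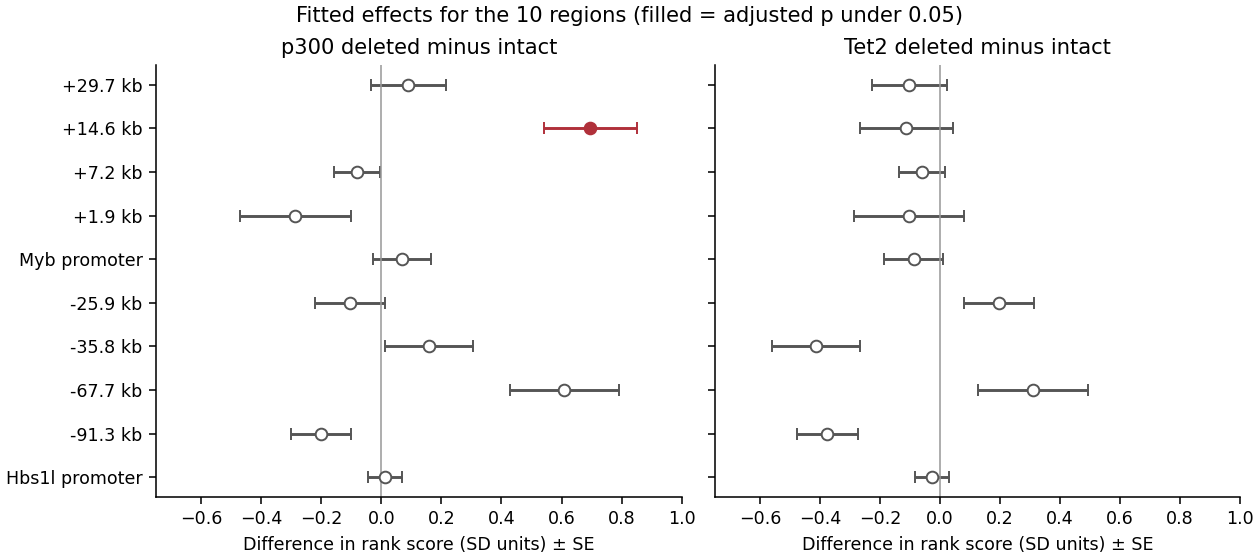
Difference in rank score with its SE for the 10 regions on all 16 lists, for p300 loss (left) and Tet2 loss (right), each over both backgrounds of the other gene; 1 unit is 1 SD over regions. Only the +14.6 kb region is filled, at 0.70 for p300 loss, and both promoters lie near 0 in both panels.

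The remaining 71 regions were absent from at least 1 list and were described by presence. No region of the window was on all 4 lists of a genotype and on at most 1 list of its comparison genotype, either in P300KO_TET2KO against TET2KO, where 0.515% of regions genome-wide did, or in P300KO against WT, where 0.148% did. Of the 67 regions seen in P300KO_TET2KO or TET2KO, 26 were in more libraries of P300KO_TET2KO, 15 in more of TET2KO and 26 in as many; genome-wide 28.5% of regions were in more P300KO_TET2KO libraries and 27.6% in more TET2KO libraries. Of the 65 regions seen in P300KO or WT, 25 were in more P300KO libraries and 15 in more WT libraries, against 31.1% and 39.2% genome-wide. The weak region at -58.4 kb was in 4 of 4 WT libraries and 2 of 4 of each other genotype. The region at -81.1 kb was in no WT library, 2 P300KO, 1 TET2KO and 3 P300KO_TET2KO libraries, at a mean percentile of 19.2.

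The number of peaks in the window differed between the pairs of replicates. It was 30.9 ± 4.45 in replicates 1 and 2 and 41.1 ± 2.59 in replicates 3 and 4 (SD, n = 8 libraries each). WT lists held 33.8 ± 7.93 and P300KO lists 36.5 ± 5.45 (SD, n = 4). TET2KO lists held 35.2 ± 6.29 and P300KO_TET2KO lists 38.5 ± 7.33 (SD, n = 4). Libraries without p300 had 3 more peaks than those with it, which did not pass a two-sided exact permutation test within replicate pair and Tet2 background (p = 0.137, adjusted p = 0.333 over 3 comparisons). The Tet2 effect was 1.75 peaks (exact permutation p = 0.367, adjusted p = 0.367). Over Myb with 110 kb upstream, without Hbs1l, the p300 effect in whole lists was 2.62 peaks (exact permutation p = 0.116). P300KO_TET2KO had 3.25 more peaks than TET2KO over the full window (exact permutation p = 0.222, adjusted p = 0.333), in a design whose smallest possible p is 0.0556.

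As an alternative, when each list was limited to its strongest 50000 peaks, which sets lists to the same length, the libraries without p300 held more peaks than those with it. WT libraries then held 11, 14, 13 and 13 peaks in the window and P300KO libraries 18, 17, 16 and 14. TET2KO libraries held 12, 14, 13 and 13, and P300KO_TET2KO libraries 15, 15, 16 and 15. All 8 libraries without p300 held at least 14 peaks and all 8 with p300 at most 14. The difference was 2.88 peaks, with an unadjusted two-sided exact permutation p of 0.00154, the smallest this design can give. It was present in both pairs of replicates, as 5 and 2 more peaks in P300KO than in WT and as 2 and 2.5 more in P300KO_TET2KO than in TET2KO. The Tet2 effect in these shortened lists was -0.38 peaks (exact permutation p = 0.667).

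**Figure D4:**
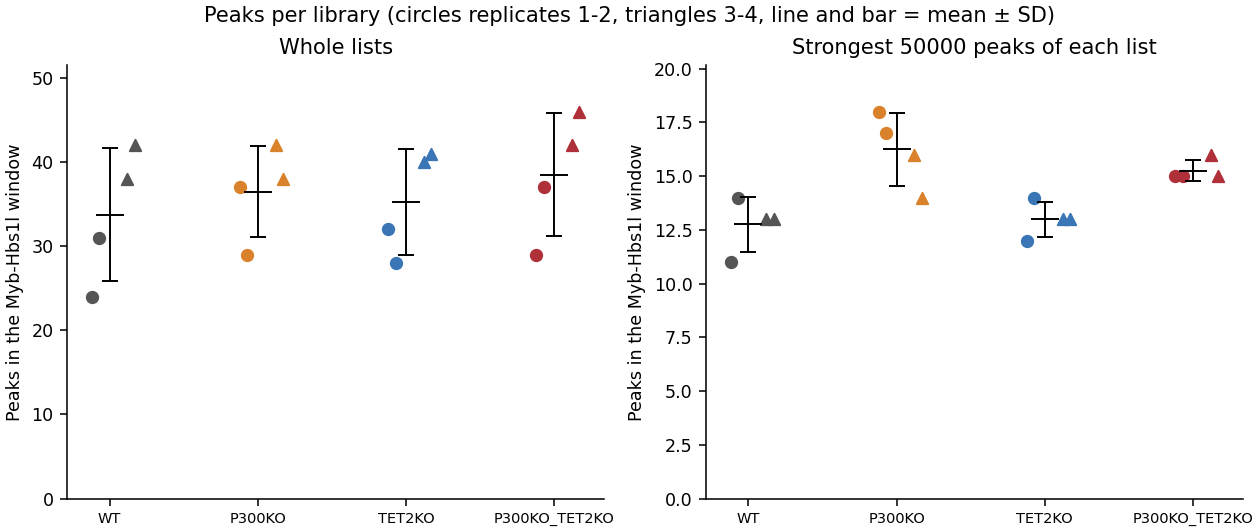
Peaks per library in the Myb-Hbs1l window by genotype, in whole lists (left) and among the strongest 50000 peaks of each list (right), with mean ± SD of 4 libraries. Whole lists separate by replicate pair, and the shortened lists put the libraries without p300 at 14 to 18 peaks and those with p300 at 11 to 14.

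These strong peaks fell in 25 regions of the window, of which 6 were strong in all 16 libraries: both promoters and the regions at +29.7, +7.2, -25.9 and -91.3 kb. Of the other 19, 14 were strong in more libraries without p300, 3 in more libraries with p300 and 2 in as many. Of the 51561 regions genome-wide that were strong in some but not all libraries, 42.2% were strong in more libraries without p300, 44.9% in more with it and 12.9% in as many. The region at +42.4 kb, downstream of Myb (chr10:21118078-21119112), was strong in 6 of 8 libraries without p300, all 4 of P300KO_TET2KO and P300KO replicates 1 and 2, and in 0 of 8 with it. The limit is a rank in lists of unequal length, and some libraries lay close to it: WT replicate 2 ranked 50932 and P300KO replicate 4 ranked 50866, just outside. P300KO_TET2KO replicate 1 was inside at percentile 52.5, while TET2KO replicate 4 was outside at 56.6. The +42.4 kb region was the only one of the window strong in 4 of 4 P300KO_TET2KO and 0 of 4 TET2KO libraries, out of 21 strong in either, against 0.23% of such regions genome-wide. Its percentile was 33.9, 53.7, 45.7 and 50.1 in WT and 65.2, 64.3, 61.1 and 62.1 in P300KO. It was 32.2, 52.6 and 56.6 in TET2KO replicates 1, 3 and 4, with no peak in replicate 2, and 52.5, 58.5, 73.2 and 71.7 in P300KO_TET2KO. The ranges of WT and P300KO did not overlap, nor did those of the libraries with and without p300 within replicates 3 and 4. How often regions genome-wide show such ranges was not counted. Because 1 list lacked it, the region was outside the fit on shared regions. In a fit of regions on at least 8 lists, scored by rank in the whole list with a missing peak set to the lowest score, the p300 effect was 0.98 ± 0.51 (SE; limma adjusted p = 0.600) at +42.4kb. At the other end, the region at -18.0 kb, in an intron of Gm40608, was strong in 8 of 8 libraries without p300 and 5 of 8 with it, and the region at -202.5 kb, in an intron of Hbs1l, in 8 and 6 of 8. The intronic region at +1.9 kb went the other way, strong in 1 of 8 libraries without p300 and 4 of 8 with it.

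In P300KO_TET2KO replicate 4, peaks over the Myb gene body took the shape of its exons. Myb has 15 exons in its principal transcript, and in this library 7 peaks lay at least 50% inside exons and covered at least 80% of the coding part of 8 of them: exons 5, 6 and 10 to 15. At exon 14 (chr10:21139293-21139400) the peak was 157 bp long for an exon of 108 bp, and at exons 11 and 12 a single peak of 376 bp with 2 summits spanned both. In TET2KO replicate 4 such peaks covered 3 exons (9, 12 and 13), in WT replicate 2 they covered exon 9, and in the other 13 libraries none. The regions at +21.6, +18.0, +10.6 and +8.4 kb, each over an exon, were seen in P300KO_TET2KO replicate 4 alone, and those at +20.4 and +19.2 kb only in this library and TET2KO replicate 4. In a scan of internal exons of 11321 genes in the same library, Myb had 5 of 13 internal exons matched by single peaks (38.5%), second by share to Dpf2 with 4 of 9 (44.4%). By number of exons it ranked first. The cause was not tested.

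**Figure D5:**
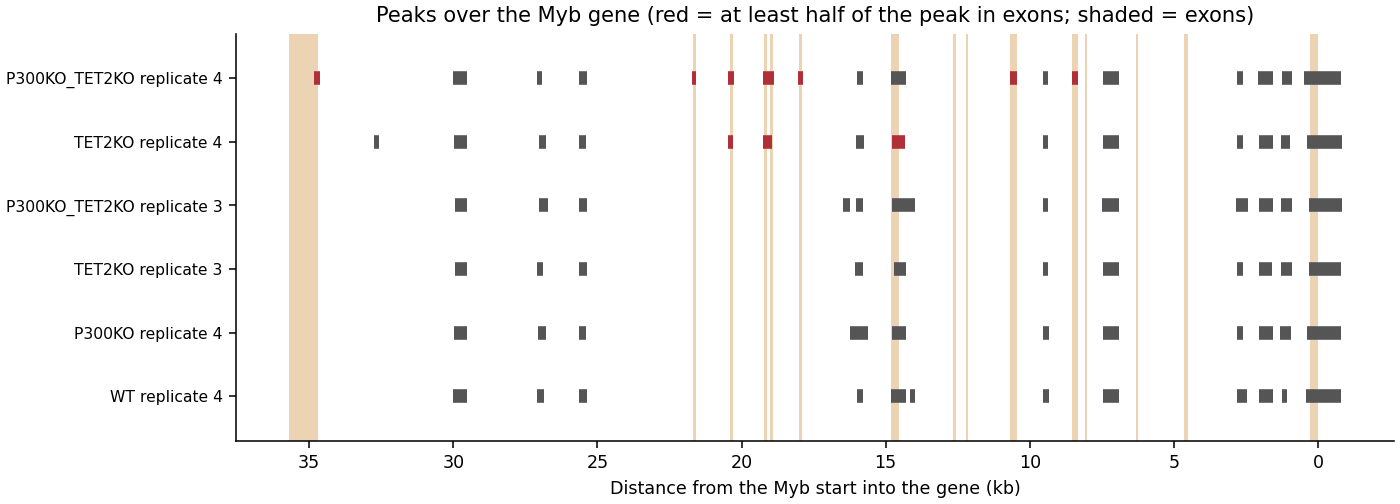
Peaks over the Myb gene in 6 libraries of replicates 3 and 4, placed by distance from the Myb start in kb, with exons shaded and peaks at least 50% inside exons in red. P300KO_TET2KO replicate 4 has 7 such peaks and TET2KO replicate 4 has 3, including that of the +14.6 kb region, and the other 4 libraries shown have none.

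These exon-shaped peaks touch the comparisons above in part. Without peaks at least 50% inside Myb exons, the count differed by 3.12 between libraries without and with p300 (exact permutation p = 0.162). The Tet2 effect fell from 1.75 to 0.62 peaks. This limit also removed the +14.6 kb peak from WT replicates 1 and 2 and TET2KO replicates 2 and 4, all libraries with p300. It removed that peak from no library without p300, and those removals raise the difference. The count with the +14.6 kb peaks kept was not tested. The value of 3.12 therefore cannot show whether the other exon-shaped peaks added to the difference. None of the removed peaks was among the strongest 50000 peaks, so the difference of 2.88 was the same. The +14.6 kb region overlaps exon 9, and the share of its peak inside that exon ran from 3.38% to 56.4% in libraries with p300 and from 2.86% to 48.9% in those without, and these ranges overlapped. Without TET2KO and P300KO_TET2KO replicate 4 its p300 effect was 0.70 and the limma adjusted p 0.0871.

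Promoters of genes tied to Myb were examined in the same fit. Of 14 factors known to act upstream of Myb or to bind its enhancers, 13 had a promoter region on all 16 lists. None passed for the p300 or the Tet2 effect, with a median p300 effect of 0.07 over the list against 0.01 over all regions. Gata2, which drives early progenitor programs, had a p300 effect of 0.30 (limma adjusted p = 0.144), and Klf1, an erythroid activator, one of 0.23 (limma adjusted p = 0.113). The Gata1 promoter region was on 13 lists and not tested. Of 8 Myb family and cofactor genes, which include Myb itself, Mybl1, Mybl2, Crebbp and the Mll partners Men1 and Psip1, 8 were tested and none passed, with a median p300 effect of 0.06. Of 11 genes known as Myb targets, with Lmo2 in this list and in the first, 10 were tested and none passed, with a median p300 effect of -0.04. Gfi1, a repressor that restrains stem cell cycling, had the lowest at -0.35 (limma adjusted p = 0.0725), Kit, the stem cell factor receptor, had -0.11 and Myc had -0.06. No gene of these lists passed in P300KO_TET2KO against TET2KO or in P300KO against WT either.

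Across the 16 libraries, with replicate pairs centered, the promoter regions whose rank scores were most like those of the Myb promoter were those of Yaf2 (Pearson r = 0.876), Cep295 (0.844), Lpcat1 (0.819), Rfc1 (0.806) and March2 (0.805), out of 13541 protein-coding genes compared. These correlations share the same libraries and are a description only. Within the window the other 9 shared regions correlated with the Myb promoter between -0.45 at the Hbs1l promoter and 0.20 at -67.7 kb, on the same 16 libraries.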

How the data were processed

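ATAC-seq libraries were made from 50000 of 200000 sorted HSPCs, 16 libraries in all. Per the submitters' processing notes, reads were trimmed with cutadapt 1.9.1 and aligned to mm10 with Bowtie2 2.2.6, and peaks were called for each library with MACS2 2.1.0. Each summit in the deposited lists carries a fold enrichment (ratio over local background) and the authors' -log10 p and -log10 q values. These are relative to the same library, so ranks within a list were compared in the reported fit, with quantile-normalised log2 fold enrichment and a -log10 q limit of 2 as alternatives. Peaks sharing an interval were counted once, and lists were merged at 1 bp overlap. Genes came from GENCODE M21 and sequences from GRCm38.p6. Rank scores of the regions on all 16 lists were fitted with limma 3.58.1 (R 4.3.3), and the procedure was tested on simulated data. Peak counts were compared by exact permutation within replicate pair. The threshold was 0.05. Each library pooled 2 mice, and p-values measure the spread between these libraries.

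The regions described in full were both promoters, the 6 strongest non-promoter regions on all 16 lists, any region called in a fit, and any present in 4 of 4 against at most 1 of 4 libraries. Members, gene lists, strings and tests were chosen with earlier results of these data known. Regions at +42.4, -18.0, -28.2, -58.4, -81.1 and -202.5 kb and the exon-shaped peaks were chosen after their values were seen. Alternatives were another score, fold enrichment, other sets of regions or peaks, other covariates, each replicate pair alone, other count measures, and leaving out each library. The exon-shaped peaks and the 2 libraries that hold most of them were left out as alternatives added after the data were seen. No files other than the peak lists were used.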

Additional observations from a re-analysis of the deposited data

Results flagged for a closer look

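Of 52 groups of 4 libraries examined, 3 held a library set apart from the other 3 by Dixon's criterion, which chance alone gives in about 1 group in 20. The region at -35.8 kb stood at percentile 62.6 in P300KO replicate 2, against 68.1 to 68.7 in the other P300KO libraries. The same region stood at 48.6 in P300KO_TET2KO replicate 2, against 64.0 to 64.9 in the others of that genotype. Among the strongest 50000 peaks, P300KO_TET2KO replicate 3 held 16 peaks in the window where the other 3 libraries held 15 each, a gap of 1 peak.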

How the results depend on the processing

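Of 398 alternative values, 342 kept their direction and their side of the threshold or stayed within 1.5 times. The number of window regions called for p300 loss was 1 in the reported fit. It was 0 with log2 fold enrichment, with regions on at least 8 lists, with peaks of -log10 q of at least 2 (7 regions tested, +14.6 kb not among them), with no term for replicate pair, in replicates 1 and 2 alone and without TET2KO and P300KO_TET2KO replicate 4. It was 2 in replicates 3 and 4 alone, where P300KO_TET2KO against TET2KO gave 1, and between 0 and 2 with 1 library left out. With variance trend and robust settings the region called was -67.7 kb, not +14.6 kb. The 4 other comparisons gave 0 with any 1 library left out.

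The p300 effect on the peak count passed the threshold under other measures, each by an unadjusted test. It was 2.88 among the strongest 50000 peaks (exact permutation p = 0.00154) and 5.12 with -log10 q of at least 2 (exact permutation p = 0.0386). It was 6.75 counting every summit (exact permutation p = 0.0231) and 2333 bp of covered length (exact permutation p = 0.0170). No exon-shaped peak was among the strongest 50000, so leaving them out could not change 2.88. Whole lists of replicates 1 and 2 also differed in -log10 q and in summits. Peaks with -log10 q of at least 2 made up 45.0% and 63.2% in WT and 80.6% and 71.3% in P300KO. They made up 82.0% and 80.7% in TET2KO and 86.2% and 93.4% in P300KO_TET2KO. Summits numbered 121241 and 143104 in WT and 148117 and 118752 in P300KO. They numbered 135609 and 130393 in TET2KO and 148443 and 159856 in P300KO_TET2KO. The part of these list differences in the window differences was not tested. With 1 library left out the p300 effect on the whole-list count lay between 2 and 4, the Tet2 effect between 0.75 and 2.75, and P300KO_TET2KO against TET2KO between 1.25 and 5.25. The Tet2 effect turned to -0.38 among the strongest 50000 peaks. Regions on all 16 lists numbered 5 when at least 50% of a region had to be covered, and +14.6 kb was not among them. The p300 effect at the Myb promoter turned to -0.12 with log2 fold enrichment. That at the Hbs1l promoter turned to -0.0062 with fold enrichment and to -0.037 in replicates 3 and 4 alone, and lay between -0.0152 and 0.0329 with 1 library left out, below 0 without WT replicate 2, TET2KO replicate 2 or P300KO_TET2KO replicate 1. Within 50 bp of the summit, Gata, Ets and Myb strings were each left in 1 of the 6 regions and Cebp in 0.

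No pairing by replicate number was seen, as 0 of 24 pairs with equal numbers correlated above 0.1. Their correlations ran from -0.28 to 0.028, and those of pairs with other numbers from -0.29 to 0.023. These were residuals after fitting genotype and replicate pair, which pushes correlations below 0. The check therefore cannot settle whether replicate numbers pair the samples. With a replicate block 1 region was called for p300 loss, as before, and the p300, Tet2 and P300KO_TET2KO effects on the peak count were 3 (exact p = 0.242), 1.75 (exact p = 0.5) and 3.25 (exact p = 0.375). The block lowered genome-wide calls for P300KO_TET2KO against TET2KO, P300KO against WT, p300 and Tet2 from 52, 199, 1015 and 308 to 31, 93, 750 and 193. For p300 loss, genome-wide calls were 468 by whole-list percentile, 591 by fold enrichment, 19 of 100435 regions on at least 8 lists, 247 with no pair term, 0 in replicates 1 and 2, 1758 in replicates 3 and 4, and 253 without the 2 libraries named above. Leaving those out, and the exon-shaped peaks, was chosen after the data were seen. Depth could not be assessed from these lists.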
